A study of Homo sapiens with 16 samples.

Results

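The HBS1L-MYB interval of human chromosome 6 was examined as open chromatin in DND41 and MOLT4, 2 established cell lines of human T-cell acute lymphoblastic leukaemia. All peaks of the 16 libraries inside chr6:135270000-135560000 (hg19) were taken, and peaks sharing at least 1 base were merged. This gave 28 regions, of 131357 regions merged in the same way over the genome. Each line was given 100 nM ACBI-1 or the solvent DMSO and was sampled after 3 h or 24 h, which makes 8 groups of 2 libraries. ACBI-1 is a PROTAC, a small molecule that brings a protein to a ubiquitin ligase, and its targets for degradation are SMARCA2 and SMARCA4, the ATPases of SWI/SNF, and the subunit PBRM1. ATAC-seq was used, in which the transposase Tn5 inserts adapters into accessible DNA. Nothing in the labels tells whether paired libraries were grown as separate cultures, and p-values therefore cover only the spread among these libraries, which may be technical. Groups follow the sample titles, because a separate label field gave the opposite line in 8 samples. Each line is a single established line, so a difference between lines is between DND41 and MOLT4 and not between classes of leukaemia.

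MYB encodes a transcription factor that haematopoietic progenitors and developing T cells depend on, and it acts as an oncogene in T-cell leukaemia. HBS1L, its neighbour, encodes a GTPase that works with pelota to rescue stalled ribosomes. The DNA between the genes holds enhancers that, in erythroid cells, are bound by GATA1, TAL1, KLF1 and LDB1 and loop to MYB, and variants there are associated with fetal haemoglobin. SWI/SNF complexes slide and evict nucleosomes and keep many such enhancers accessible. In the RefSeq gene order HBS1L, on the minus strand, comes first, then the microRNA MIR3662, the non-coding genes LOC124901405, LOC124901406 and LOC105378010, and then MYB on the plus strand with LOC105378011 after it. The 2 coding genes point away from each other.

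The 2 promoters that bound the intergenic DNA are shown because they fix the ends of the enhancer interval. They are RefSeq sequences of GRCh38.p14, 5′ to 3′ on the strand of the gene, with 250 bases before the annotated start in lower case and the 50 bases from the start on in capitals. MYB lies on the plus strand at chr6:135181058-135181357 and HBS1L on the minus strand at chr6:135054773-135055072, both in GRCh38.p14.
MYB: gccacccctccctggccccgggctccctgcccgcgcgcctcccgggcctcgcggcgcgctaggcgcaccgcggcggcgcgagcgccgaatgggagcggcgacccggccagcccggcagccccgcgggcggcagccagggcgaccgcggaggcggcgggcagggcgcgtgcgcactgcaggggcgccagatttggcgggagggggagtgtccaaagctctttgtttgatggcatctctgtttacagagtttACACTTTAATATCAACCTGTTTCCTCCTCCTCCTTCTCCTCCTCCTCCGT
HBS1L: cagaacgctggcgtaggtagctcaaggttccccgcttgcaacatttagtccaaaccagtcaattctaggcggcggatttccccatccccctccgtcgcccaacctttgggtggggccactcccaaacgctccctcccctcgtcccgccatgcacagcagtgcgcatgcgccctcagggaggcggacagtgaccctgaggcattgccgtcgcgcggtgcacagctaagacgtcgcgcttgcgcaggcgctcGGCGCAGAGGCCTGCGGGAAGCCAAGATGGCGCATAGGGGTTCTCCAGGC
Both promoters are rich in CpG. The MYB sequence is 71.0% GC with 35 CG dinucleotides and the HBS1L sequence 64.7% GC with 26, against medians of 58.7% and 14 over 35116 RefSeq promoters of that length. Searched on both strands, the ETS core GGAA occurred 1 time in MYB and 3 times in HBS1L, and at least once in 95.5% of promoters. The MYB recognition core AACNG occurred 2 times in the promoter of MYB and not in that of HBS1L, and 77.2% of promoters hold it. GATA and the GC box GGGCGG were each found 1 time in MYB and not in HBS1L (49.7% and 45.0% of promoters hold them). The E-box CANNTG, held by 68.7% of promoters, and the RUNX letters TGTGGT, held by 13.1%, were in neither. The peaks are in hg19, another build, so no peak was laid on these sequences and no region below is assigned to a promoter, exon or named enhancer.

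The window held a small set of regions shared by all libraries and a larger set that came and went. A peak was present in all 16 libraries at 5 of the 28 regions, 17.9%, against 12037 of 131357 regions of the genome, 9.16%. Another 10 regions were found in 4 to 13 libraries, and 13 in fewer than 4. Of these 13, 11 were found in 1 library only, 7 of them in ACBI-1 libraries and 4 in DMSO libraries, with peaks of 137 to 250 bp. The longest stretch with no peak in any library was 48047 bp, chr6:135275481-135323527, at the HBS1L end of the window. The 15 regions found in at least 4 libraries are described below by position. Distances are in kb from the centre of the widest of the 5 shared regions, the 1402 bp at chr6:135501587-135502988, called here the anchor region. Negative distances run toward the HBS1L end of the window. The genes were not placed in hg19, so the sign does not tell whether a region lies within or between them.

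**Figure D1:**
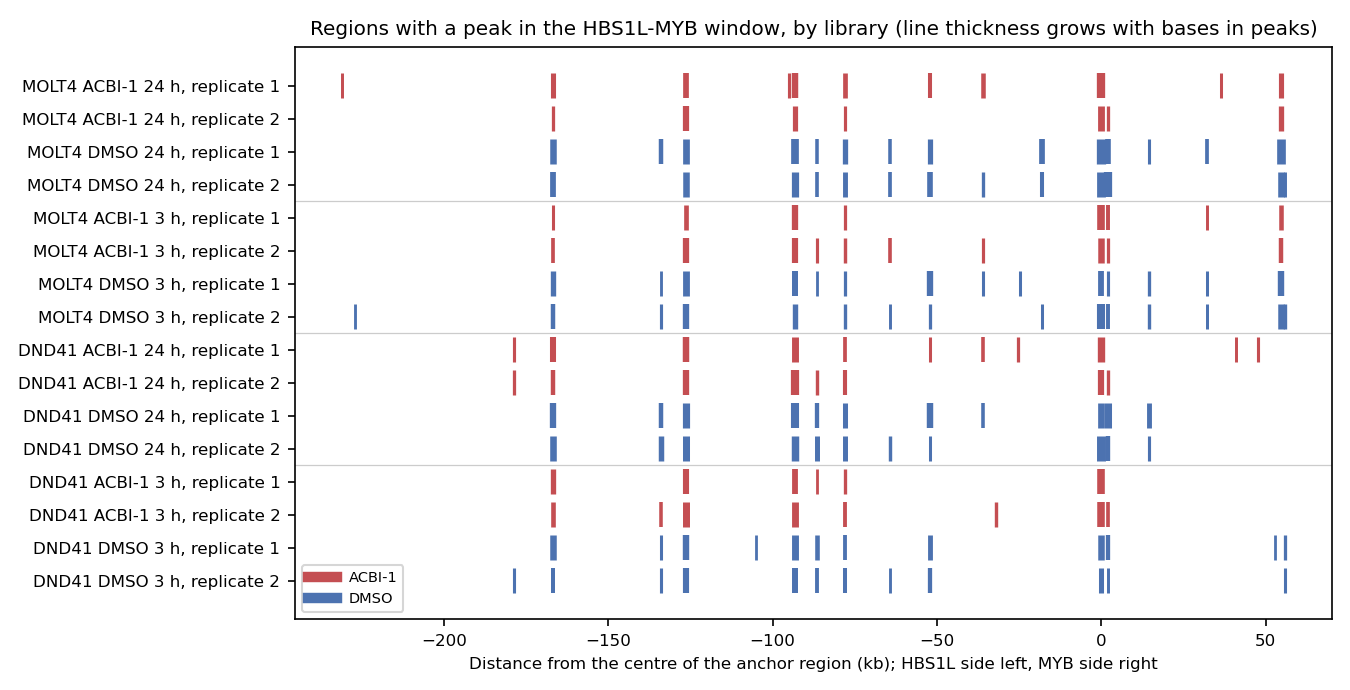
Regions with a peak in the HBS1L-MYB window, 1 row per library, against the distance in kb from the centre of the anchor region; line thickness grows with the bases in peaks, with ACBI-1 in red and DMSO in blue. The 5 shared regions run as unbroken columns at -166.7, -126.2, -93.3, -78.0 and 0.0 kb, and the column at 54.7 kb is in MOLT4 libraries only.

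On average, ACBI-1 libraries had fewer open regions in the window and less DNA in peaks than DMSO libraries in both lines and at both times. A peak was found at 8.62 ± 1.85 regions in ACBI-1 libraries and 12.75 ± 1.49 in DMSO libraries (SD, n = 8 each), a difference of -32.4%. Over all regions of the genome the same difference was -27.9%. With ACBI-1, DND41 had 6 and 8 regions at 3 h and 11 and 8 at 24 h, and MOLT4 had 8 and 10 at 3 h and 11 and 7 at 24 h. With DMSO, DND41 had 12 and 12 at 3 h and 11 and 11 at 24 h, and MOLT4 had 14 and 15 at 3 h and 14 and 13 at 24 h. The treatments met only at 11 regions. The lists of ACBI-1 libraries were shorter over the whole genome. With every list held to the 26145 widest peaks, the difference between ACBI-1 and DMSO libraries was -0.375 regions, against -4.125 as deposited. That length is the shortest list, of a DND41 library given ACBI-1 for 3 h, and DMSO lists held 39117 to 46712 peaks. Such trimming removes a difference in list length whatever its source, and the source was not tested.

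The bases covered by peaks were 4388 ± 785 in ACBI-1 libraries and 6954 ± 1640 in DMSO libraries (SD, n = 8 each), a difference of -36.9%. Most of this lay outside the 5 shared regions. The shared regions held 3370 ± 468 bases in ACBI-1 libraries and 3934 ± 751 in DMSO libraries, a difference of -14.3%. In the other 23 regions the values were 1018 ± 543 and 3020 ± 1056 bases, a difference of -66.3%, with ranges of 137 to 1987 in ACBI-1 libraries and 1659 to 4772 in DMSO libraries. These totals are descriptions with no test, and the same differences in bases over the genome were not computed. Over the genome the difference in peaks per library was -27.8%. In regions with a peak in all 16 libraries the genome-wide median log2 difference in bases was -0.12. Regions were split by the presence of peaks in all libraries, so a region that lost its peak in any ACBI-1 library could only enter the second set.

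**Figure D2:**
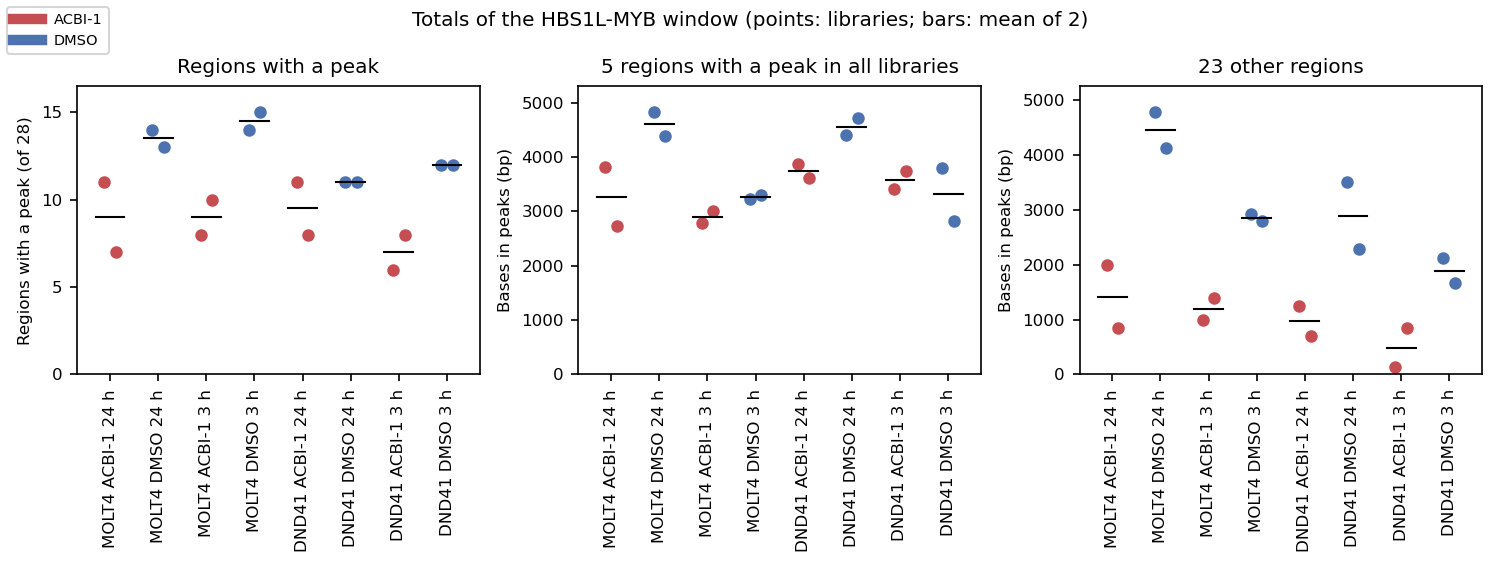
Totals of the window per library (points, in bp or as a number of regions) with the mean of the 2 libraries of each group (bars), ACBI-1 in red and DMSO in blue. Across the 23 regions not shared by all libraries, ACBI-1 libraries held 137 to 1987 bases in peaks and DMSO libraries 1659 to 4772.

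Of the 10 regions found in 4 to 13 libraries, 8 had a peak in fewer ACBI-1 than DMSO libraries, 2 in equal numbers and none in more. Their counts allowed a test of treatment at 6, by exact permutation, two-sided, with treatment labels exchanged only within each line and time, with Benjamini-Hochberg adjustment over the 8082 regions of the genome that could be tested. Peaks were called lost under ACBI-1 at 2 of the 6, the -133.8 kb and -52.1 kb regions. Over the genome 27.9% of tested regions were called in that direction, so the share in the window is near the background. Neither call was made with lists held to equal length or with only peaks of at least 170 bp kept. With that minimum width, the exact permutation p at -52.1 kb was 0.0139 (adjusted p = 0.0527). At -133.8 kb it was 0.0417 (adjusted p = 0.0774). With equal lists the exact permutation p at -52.1 kb was 0.0417 (adjusted p = 0.115), and at -133.8 kb the counts allowed no test. No region of the window was called gained, against 0.111% of the genome. The direction of presence was not counted over all regions of the genome found in 4 to 13 libraries. At an unadjusted exact permutation p under 0.05, 4584 of the 8082 tested regions were in fewer ACBI-1 libraries and 36 in more.

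**Figure D3:**
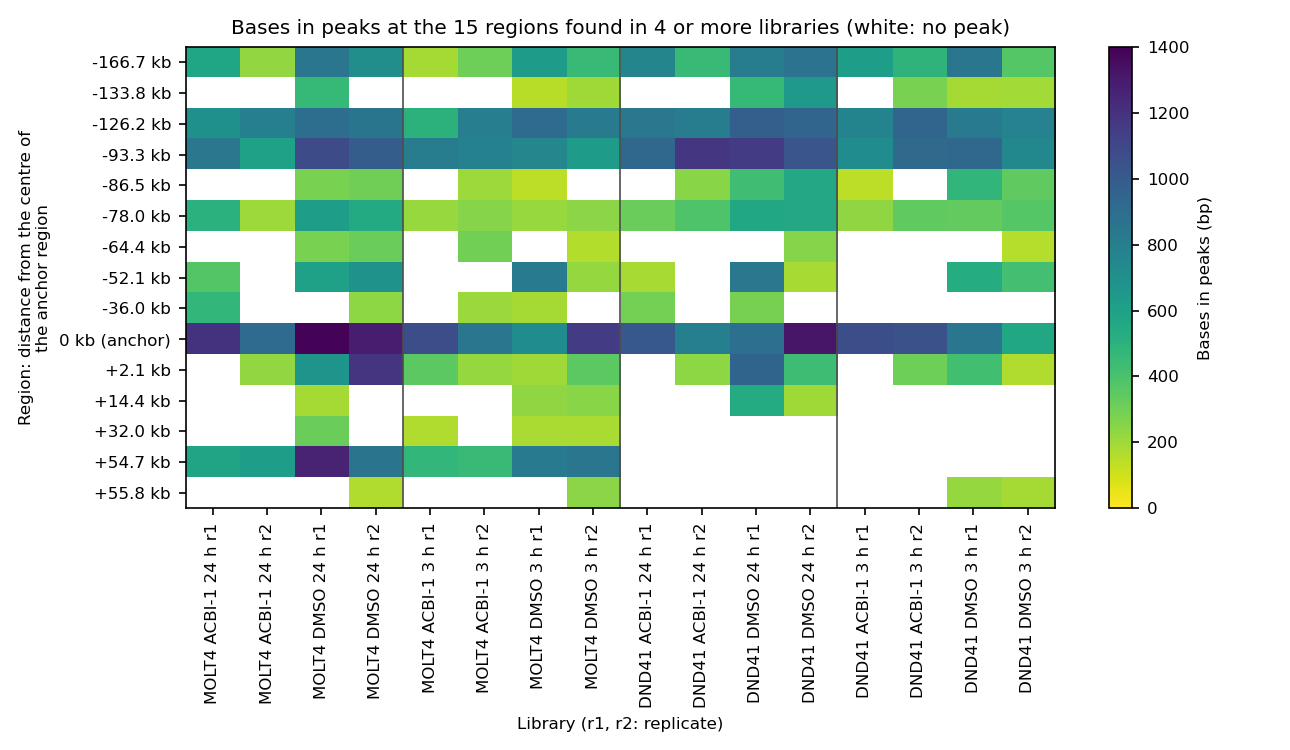
Bases in peaks (colour, bp; white where there was no peak) at the 15 regions found in at least 4 libraries, with regions in order of position and libraries in columns. In ACBI-1 columns the rows at 14.4 and 55.8 kb are empty, those at -133.8, -64.4 and 32.0 kb hold 1 peak each, and that at -52.1 kb holds 2. The row at 54.7 kb is filled in MOLT4 columns only.

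At the -52.1 kb region, chr6:135449566-135450749, ACBI-1 libraries held no peak at 3 h in either line, peaks of 183 and 0 bases in DND41 at 24 h, and 377 and 0 in MOLT4 at 24 h. All 8 DMSO libraries held one. DND41 had 531 and 420 bases with DMSO at 3 h and 837 and 182 at 24 h, and MOLT4 had 818 and 223 with DMSO at 3 h and 599 and 683 at 24 h. A peak was thus in 2 of 8 ACBI-1 and 8 of 8 DMSO libraries (exact permutation p = 0.0139, adjusted p = 0.0497). The call sits at the threshold: leaving out any 1 library gave adjusted p of 0.051 to 0.0667.

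The 2 peaks left under ACBI-1 in that region both started after its midpoint. A peak starting before the midpoint of the region was in 0 of 8 ACBI-1 and 8 of 8 DMSO libraries, and one starting after it in 2 of 8 ACBI-1 and 3 of 8 DMSO libraries. Some DMSO peaks that started before the midpoint ran past it. The split at the midpoint was not among the planned comparisons. It was made only at regions where some library held more than 1 peak, and it was not counted over the genome. The midpoint is that of the merged region, whose first and last bases both come from DMSO peaks. In fixed bins of 500 bases, a grid chosen after the data were seen, chr6:135449501-135450000 held a peak in 0 of 8 ACBI-1 and 8 of 8 DMSO libraries. Its exact permutation p was 0.00154, the smallest the design can give, and its adjusted p over 16043 bins was 0.0539. The next bin, chr6:135450001-135450500, held a peak in 2 of 8 ACBI-1 and 6 of 8 DMSO libraries (exact permutation p = 0.153, adjusted p = 0.261). No bin of the genome was called for treatment, 0%. At an unadjusted p under 0.05, 4 of the 13 bins tested in the window had fewer ACBI-1 peaks, against 7968 bins, 49.7%, of the genome.

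At the -133.8 kb region, chr6:135368144-135368791, the single ACBI-1 peak was 283 bases in 1 of the 2 DND41 libraries at 3 h. With DMSO, DND41 held 186 and 193 bases at 3 h and 460 and 648 at 24 h, and MOLT4 held 150 and 200 at 3 h and 460 and 0 at 24 h. A peak was in 1 of 8 ACBI-1 and 7 of 8 DMSO libraries (exact permutation p = 0.0139, adjusted p = 0.0497). The call stood in 2 of the 16 tests that left out 1 library each, which omitted the second DND41 library given ACBI-1 for 3 h or the second MOLT4 library given DMSO for 24 h, and the adjusted p ran from 0.0422 to 0.0658.

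Past the anchor, at higher coordinates, the 14.4 kb region, chr6:135516324-135517056, had a peak in 0 of 8 ACBI-1 and 5 of 8 DMSO libraries. With DMSO, DND41 had no peak at 3 h and 537 and 199 bases at 24 h, and MOLT4 had 233 and 247 bases at 3 h and 191 and 0 at 24 h. It did not pass the adjustment (exact permutation p = 0.0278, adjusted p = 0.0573). The 55.8 kb region, chr6:135558000-135558258, was also in no ACBI-1 library and in 4 DMSO libraries, 2 of DND41 and 2 of MOLT4, with peaks of 165 to 244 bases, and its counts allowed no test.

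The 2.1 kb region, chr6:135503542-135505237, neighbours the anchor at higher coordinates. With ACBI-1, DND41 had 0 and 307 bases at 3 h and 0 and 236 at 24 h, and MOLT4 had 353 and 221 at 3 h and 0 and 228 at 24 h. With DMSO, DND41 had 425 and 168 at 3 h and 950 and 437 at 24 h, and MOLT4 had 199 and 353 at 3 h and 677 and 1186 at 24 h. The treatments overlapped in all settings but the 24 h libraries, where both DMSO values of each line lay above both ACBI-1 values. Presence in 5 of 8 ACBI-1 and 8 of 8 DMSO libraries allowed no test at the level of the region. A peak starting before the midpoint was in 2 of 8 ACBI-1 libraries, both MOLT4 at 3 h, and in all 8 DMSO libraries, and one starting after it in 3 of 8 ACBI-1 and 2 of 8 DMSO libraries. The bin chr6:135504001-135504500 held a peak in 2 of 8 ACBI-1 and 7 of 8 DMSO libraries (exact permutation p = 0.0278, adjusted p = 0.0669), and the next bin, chr6:135504501-135505000, in 3 of 8 and 4 of 8 (exact permutation p = 1, adjusted p = 1).

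**Figure D4:**
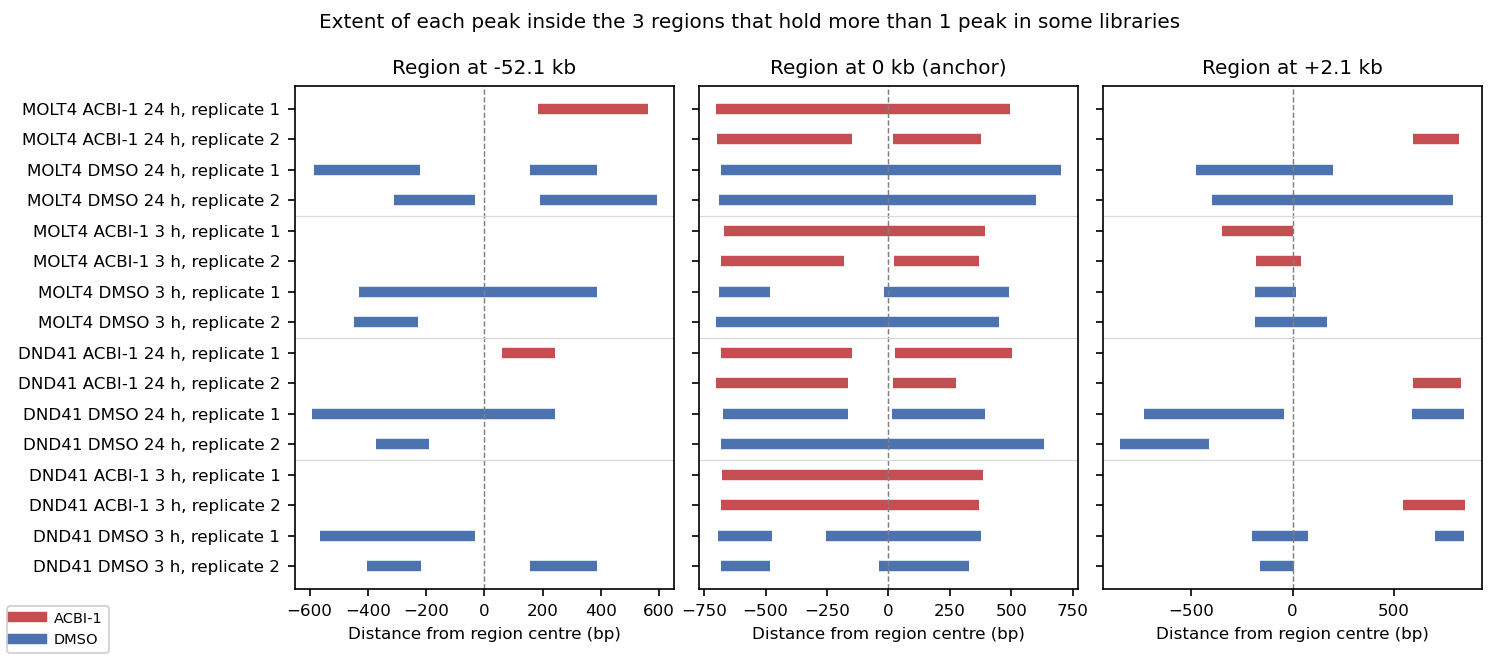
Extent of each peak, in bp from the region centre (dashed line), at the 3 regions where some library had more than 1 peak, with 1 row per library, ACBI-1 in red and DMSO in blue. At -52.1 kb all 8 DMSO libraries and no ACBI-1 library had a peak starting left of the centre, and at 2.1 kb all 8 DMSO libraries and 2 ACBI-1 libraries did, while the anchor region had one in all 16.

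The other varying regions were not called for treatment. The -86.5 kb region, chr6:135415425-135416063, had a peak in 3 of 8 ACBI-1 and 7 of 8 DMSO libraries, and the -64.4 kb region, chr6:135437616-135438128, in 1 of 8 and 5 of 8 (exact permutation p = 0.153 and adjusted p = 0.239 for each). The -36.0 kb region, chr6:135466025-135466499, was in 3 of 8 ACBI-1 and 3 of 8 DMSO libraries, with peaks of 188 to 475 bases. At 32.0 kb, chr6:135534152-135534470 was in 1 of 8 ACBI-1 and 3 of 8 DMSO libraries, all 4 of them MOLT4.

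Losses were also counted within each line and time, with no test. In DND41 at 3 h, 2 of the 10 window regions found in both DMSO libraries had no peak in either ACBI-1 library, at -52.1 and 55.8 kb, against 20.9% of such regions in the genome. In DND41 at 24 h they were 2 of 10, at -133.8 and 14.4 kb, against 27.1%. MOLT4 at 3 h lost 3 of 11, at -133.8, -52.1 and 14.4 kb, against 22.2%, and each of these was also lost in DND41 at one of the times. MOLT4 at 24 h lost 3 of 11, at -86.5, -64.4 and -17.9 kb, against 27.7%. The last of these, chr6:135484028-135484767, was singled out after its values were seen and had 699 and 379 bases in MOLT4 with DMSO at 24 h and 179 in 1 MOLT4 library with DMSO at 3 h, and no peak elsewhere. The reverse, a peak in both ACBI-1 and neither DMSO library, occurred once, at -178.6 kb in DND41 at 24 h (chr6:135323528-135323774, 198 and 223 bases, likewise singled out). Over all 131357 merged regions of the genome, DND41 had 1054 such gains at 24 h and 233 at 3 h. MOLT4 had 916 at 24 h and 331 at 3 h. The window holds 28 of these regions. Whether losses differ between lines or times was not tested.

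At the 5 shared regions the amount of peak was compared as log2 bases in peaks with limma, fitted over the 12037 regions with a peak in all 16 libraries. None of the 5 was called narrower or wider with ACBI-1 by limma or by the exact permutation test, against 6.32% of the genome called narrower and 0.0665% wider by limma. At an unadjusted limma p under 0.05, 2 of the 5 were narrower, at -166.7 and -78.0 kb, against 25.2% of the genome. At the -166.7 kb region, chr6:135335082-135336146, the ACBI-1 values were 619 and 490 bases at 3 h and 761 and 452 at 24 h for DND41, and 188 and 311 at 3 h and 574 and 226 at 24 h for MOLT4. The DMSO values were 852 and 368 at 3 h and 814 and 865 at 24 h for DND41, and 628 and 456 at 3 h and 852 and 707 at 24 h for MOLT4. In 3 of the 4 settings every ACBI-1 library lay below both DMSO libraries, and in DND41 at 3 h the values overlapped. How often regions of the genome separate in this way was not counted, for this or the other regions described. The log2 difference was -0.70 (SE 0.24, 95% interval -1.23 to -0.17, limma adjusted p = 0.106), the furthest from 0 of the 5. It was -1.13 in a fit of MOLT4 alone (adjusted p = 0.144) and -0.27 in a fit of DND41 alone (adjusted p = 0.738), a split by line added after the data were seen. The difference between lines itself was -0.86 (limma adjusted p = 0.974).

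The anchor region held nearly the same mean number of bases in peaks in both treatments. ACBI-1 libraries held 992 ± 132 bases there and DMSO libraries 1021 ± 305 (SD, n = 8 each), and the log2 difference was 0.01 (SE 0.14, 95% interval -0.30 to 0.32, limma adjusted p = 0.974). The values were 1061 and 1051 with ACBI-1 and 851 and 567 with DMSO in DND41 at 3 h, and 1013 and 794 with ACBI-1 and 890 and 1317 with DMSO in DND41 at 24 h. In MOLT4 they were 1066 and 848 with ACBI-1 and 717 and 1153 with DMSO at 3 h, and 1194 and 909 with ACBI-1 and 1384 and 1289 with DMSO at 24 h. The 2 treatments overlapped in 2 of these 4 settings. ACBI-1 stood above DMSO in DND41 at 3 h, and below it in the 24 h libraries of MOLT4. In DND41 at 3 h each DMSO library held 2 separate peaks there and each ACBI-1 library 1, and bases between separate peaks are not counted. The outer ends were 135501594 to 135502662 and 135501605 to 135502614 with DMSO. With ACBI-1 they were 135501612 to 135502672 and 135501605 to 135502655. Over all settings 4 of 8 ACBI-1 and 4 of 8 DMSO libraries held 2 separate peaks. The treatment difference at 24 h minus that at 3 h was -0.65 (unadjusted p = 0.0424, limma adjusted p = 0.643).

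The -126.2 and -93.3 kb regions lay between the anchor and the -166.7 kb region in the size of the difference. The -126.2 kb region, chr6:135375590-135376608, held 770 ± 129 bases in ACBI-1 and 876 ± 67.6 in DMSO libraries (SD, n = 8 each), a log2 difference of -0.20 (95% interval -0.41 to 0.01, limma adjusted p = 0.211). The -93.3 kb region, chr6:135408404-135409656, held 847 ± 171 and 913 ± 184 bases in the same order, a log2 difference of -0.11 (95% interval -0.33 to 0.11, limma adjusted p = 0.518). These intervals leave room for a narrowing of the size of the genome-wide median of -0.12.

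**Figure D5:**
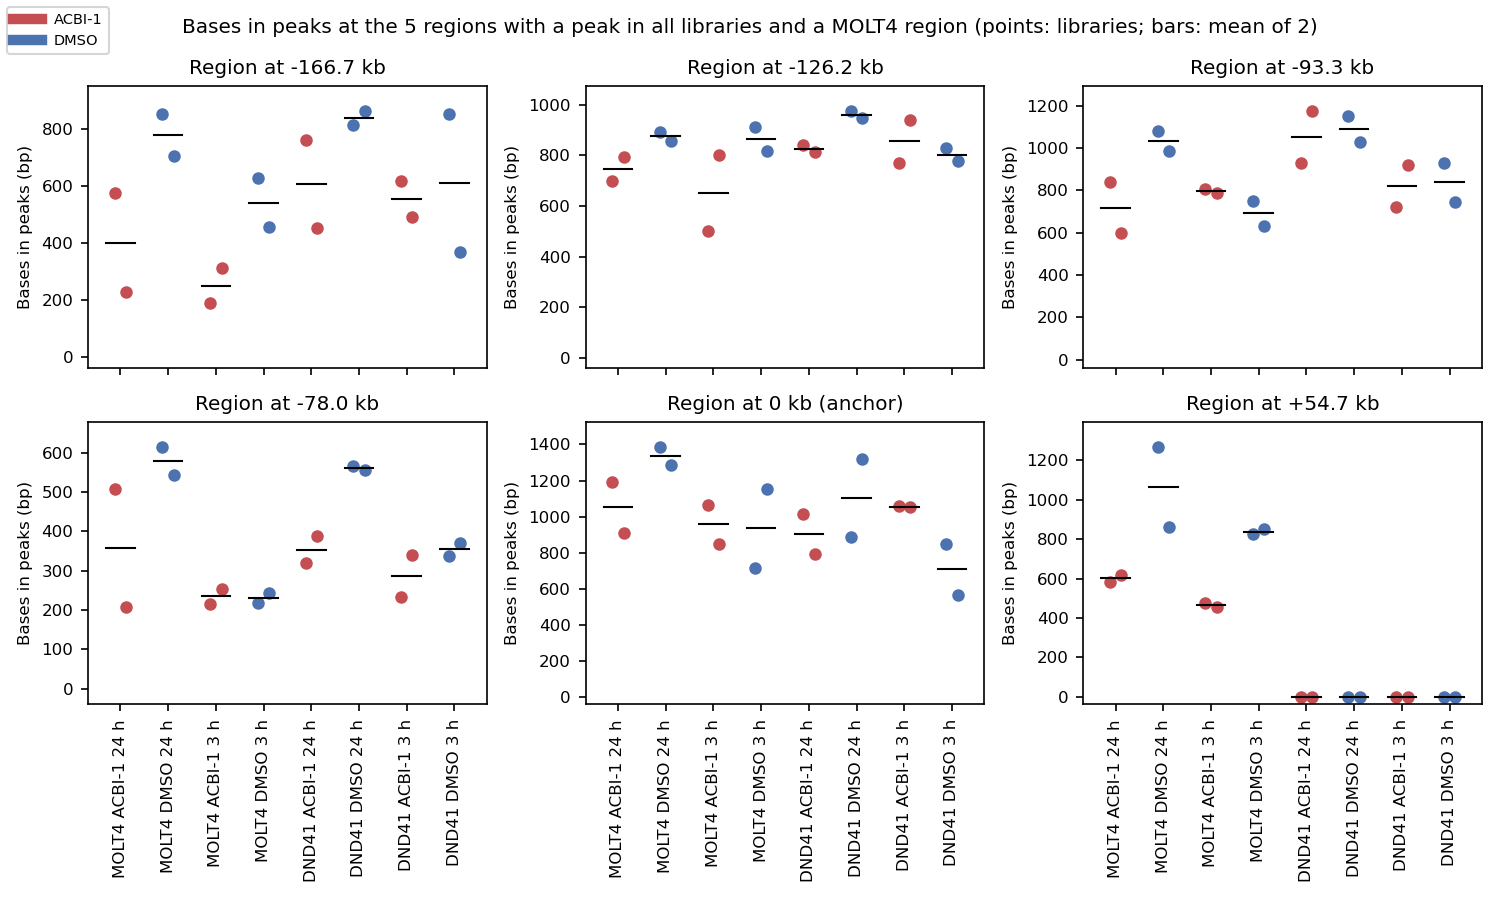
Bases in peaks per library (points) and the mean of 2 (bars) at the 5 shared regions and at the 54.7 kb region, by group, ACBI-1 in red and DMSO in blue. At 54.7 kb MOLT4 libraries held 453 to 617 bases with ACBI-1 and 828 to 1267 with DMSO, and no DND41 library had a peak.

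The lines differed most clearly at the MYB end of the window. The 54.7 kb region, chr6:135556361-135557627, had a peak in 8 of 8 MOLT4 and 0 of 8 DND41 libraries (exact permutation p = 0.00154, the smallest possible, adjusted p = 0.0111), and the call held in all 16 tests that left out 1 library. It was the one region called of the 2 that could be tested for line. Over the genome 40.8% of 11709 tested regions were called with more peaks in MOLT4 and 23.3% with fewer. MOLT4 libraries held 474 and 453 bases with ACBI-1 at 3 h, 584 and 617 with ACBI-1 at 24 h, 828 and 850 with DMSO at 3 h, and 1267 and 864 with DMSO at 24 h. The 4 ACBI-1 libraries lay below the 4 DMSO libraries, 532 ± 80.7 against 952 ± 210 bases (SD, n = 4 each). In a limma fit of MOLT4 alone, added after the data were seen, the log2 difference was -0.83 (SE 0.13, adjusted p = 0.0550), while 0.748% of 15915 regions were called narrower and 0.00628% wider.

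Other line differences were smaller or could not be tested. Of the 10 varying regions, 6 were in more MOLT4 than DND41 libraries, 2 in fewer and 2 in equal numbers. The 32.0 kb and 54.7 kb regions were in MOLT4 only. At -133.8 kb a peak was in 3 MOLT4 and 5 DND41 libraries, and at -86.5 kb in 4 and 6. MOLT4 libraries had a peak at 11.5 ± 2.98 regions of the window and DND41 libraries at 9.88 ± 2.23 (SD, n = 8 each). With ACBI-1, MOLT4 libraries had 9 ± 1.83 and DND41 libraries 8.25 ± 2.06 (SD, n = 4 each), with overlapping ranges of 7 to 11 and 6 to 11. With DMSO, MOLT4 libraries had 14 ± 0.816 and DND41 libraries 11.5 ± 0.577 (SD, n = 4 each), and the ranges of 13 to 15 and 11 to 12 did not overlap. These counts were not tested. None of the 5 shared regions was called different in width between lines by limma or by the exact permutation test, against 6.37% of the genome called wider in MOLT4 and 3.31% narrower by limma. At an unadjusted limma p under 0.05, 1 of the 5 was narrower in MOLT4, at -93.3 kb, against 9.31% of the genome. The log2 differences of MOLT4 minus DND41 ran from -0.52 at -166.7 kb (limma adjusted p = 0.198) to 0.19 at the anchor region (adjusted p = 0.424).

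More of the window lay in peaks at 24 h than at 3 h, with nearly the same number of regions. The window held 10.75 ± 2.31 regions with a peak at 24 h and 10.62 ± 3.16 at 3 h, and 6476 ± 2120 bases at 24 h against 4865 ± 1045 at 3 h (SD, n = 8 each). The peak names carry the tag p03 in all 24 h libraries and p04 in all 3 h libraries. No source used here explains the tag, and time and whatever it stands for cannot be told apart. Presence could be tested at 1 region of the window, at -36.0 kb (4 libraries at 24 h and 2 at 3 h, adjusted p = 1 by the exact permutation test). No region of the 3762 tested in the genome was called, with 290 higher and 299 lower at an unadjusted p under 0.05.

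The -78.0 kb region, chr6:135423972-135424626, was the one shared region called wider at 24 h, against 28.3% of the genome called wider and 0.282% narrower. At 24 h it held 319 and 387 bases in DND41 with ACBI-1, 565 and 555 in DND41 with DMSO, 508 and 207 in MOLT4 with ACBI-1, and 615 and 542 in MOLT4 with DMSO. At 3 h the values were 234 and 340, 338 and 370, 216 and 253, and 218 and 244 in the same order. The log2 difference of 24 h minus 3 h was 0.69 (SE 0.17, limma adjusted p = 0.0148). With each library's median log2 width subtracted, the limma adjusted p was 0.0778. Over the genome 390 of 12037 regions were then called wider at 24 h and 638 narrower, against 3405 and 34 without the subtraction. All 4 DMSO libraries at 24 h lay above the other libraries of that region, and their peaks ended at bases 135424552 to 135424626, against 135424291 to 135424489 with ACBI-1 at 24 h and 135424337 to 135424413 in the 8 libraries of 3 h. The treatment difference over both times was -0.45 (SE 0.17, 95% interval -0.82 to -0.09, limma adjusted p = 0.119), and its change between times was -0.60 (adjusted p = 0.741).

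The treatment effect on width was not called different between lines or between times at any of the 5 shared regions. Over the genome none of the 12037 regions was called for the difference between lines by limma (301 higher and 353 lower at an unadjusted p under 0.05) and 9 were called lower for the difference between times, 0.0748%. At -93.3 kb the treatment difference in MOLT4 at 24 h minus that at 3 h was -0.75 on the log2 scale (unadjusted p = 0.0218, limma adjusted p = 0.706).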

How the data were processed

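Open chromatin was measured by ATAC-seq in 16 libraries. Per the submitters' processing notes, Bowtie2, Picard, SAMtools, MACS2 2.1.1.2016030 and hg19 were used, with roles and settings not given in the sources used here. The deposited lists, made by the authors for each library, give peak positions and names (no score was used), so peak heights and read depth are unknown and a missing peak may lie below a library's detection limit. No counting interval is given. Groups come from sample titles, since the cell line field names the other line in 8 of 16 samples, while the codes inside the peak names match the titles.

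Peaks on chromosomes 1 to 22 and X sharing 1 base were merged, and bases in peaks were summed per region and library. Presence was compared by exact permutation within strata (1296 exchanges, smallest p 0.00154) where counts allowed a p of 0.05 or less. Widths, as log2 bases, were compared with limma 3.58.1 (R 4.3.3) over 8 group means, with Benjamini-Hochberg adjustment over all regions and a threshold of 0.05. Data handling used Python 3.11.15, numpy 2.4.6 and pandas 2.3.3. Both tests were tested on simulated data. Regions in at least 4 of the 16 libraries are named. The window, members and alternatives were chosen with earlier results of these data known. Alternatives were each library left out, merging at 100 shared bases, equal list length, a common minimum width, all sequences, a replicate block, other region filters, an exact test of widths and subtraction of library medians; bins of 500 bases and 1 fit per line were added after seeing the data. A planned comparison with promoters of T-lineage factors was not run, because the annotation at hand is GRCh38.p14 and the peaks are hg19.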

Additional observations from a re-analysis of the deposited data

How the results depend on the processing

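The calls of lost presence under ACBI-1 moved with the settings. Against 2 as deposited, the count was 0 with lists of equal length and 0 with only peaks of at least 170 bp. It was 0 with bins of 500 bases, and 0 to 1 when 1 library was left out. In bins the smallest exact permutation p, 0.00154, had an adjusted p of 0.0539, so none of the 16043 bins of the genome could be called. Genome shares called in the other settings are not given here. These counts alone do not tell a change at the 2 regions from a change in the adjustment over the genome. The difference in regions with a peak was -0.375 with equal lists, against -4.125 as deposited, and -4.625 to -3.625 with 1 library left out. The difference in bases was -1547 with equal lists, against -2566, and -2843 to -2288 with 1 library left out. For presence by line the count was 2 with bins and 1 to 2 with 1 library left out. The 2 bins, chr6:135556501-135557000 and chr6:135557001-135557500, both lie in the 54.7 kb region. Over the genome 13529 of 22778 bins, 59.4%, were called for line in either direction. For width by time the count was 0 with library medians subtracted, 2 with the common minimum width, 2 with the replicate block and 1 to 2 with 1 library left out. Over the genome 390 of 12037 regions were called wider at 24 h and 638 narrower with medians subtracted, against 3405 and 34 without. They were 3356 and 30 of 11469 with the common minimum width, and 2526 and 23 of 12037 with the replicate block. For width by line the window count was 1 with medians subtracted and 0 to 1 with 1 library left out, and for width by treatment 0 to 2. With medians subtracted, 704 regions of the genome were called wider in MOLT4 and 860 narrower. The cause of these changes was not tested. Subtracting medians turned the time difference at -126.2 kb to -0.12 and the treatment difference at -93.3 kb to 0.024. At the anchor region the treatment difference ran from -0.076 to 0.095 with 1 library left out and was below 0 in 7 of 16. With library medians subtracted, replicate differences in width of ACBI-1 and DMSO libraries of a line and time had correlations of -0.142 to 0.00619. These cannot show a shift shared by whole libraries, nor pairing across lines or times. The replicate numbers were not read as pairs in the main tests. With the replicate block the presence counts by treatment and line stayed at 2 and 1. Over the genome, widths called with ACBI-1 were then 1 wider and 38 narrower, against 8 and 761 without the block. With equal lists the -78.0 kb region was no longer in all libraries, so its width has no value there. Unknown read depth limits every absence reported here.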
